A study of Mus musculus with 6 samples.

Results

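The 200 longest H3K27ac domains of the ES49 mouse Ewing sarcoma line, of 13102 joined domains on chromosomes 1 to 19, are described here. H3K27ac peaks of ES49 were joined where the gap between them was under 12.5 kb. The joined domains were ranked by the summed width of their peaks, called the covered length, and the 200 highest were taken. The members were thus chosen by the covered length of ES49 H3K27ac. That length is given as a description, as is every other property of the ES49 H3K27ac list.

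Acetylation of lysine 27 on histone H3 is laid down by the acetyltransferases p300 and CBP at active promoters and enhancers. Long clusters of such chromatin are often called super-enhancers, and in many cell types they lie at genes that define cell identity. In Ewing sarcoma the fusion protein EWS-FLI1, which carries the ETS DNA-binding domain of FLI1, is known to bind both GGAA repeats and ETS sites. The same lysine can instead be trimethylated by Polycomb repressive complex 2, and one histone tail cannot carry both marks at once.

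ES49 and ES48 are mouse Ewing sarcoma cell lines that EWS-FLI1 induced, both of Balb/c background and both untreated. ChIP-seq was made for EWS-FLI1 (FLAG antibody) and H3K27ac in ES49 and in ES48, and for H3K27me3 in ES49, with input DNA of ES49 as the last of the 6 samples. What drives the fusion's expression, and whether a line is a single clone, is not given in the labels. Each group is 1 library, so line and library cannot be told apart, no test across samples exists, and no p-value is given. Intervals are 95% intervals for counting alone. They treat domains or peaks as independent, which neighbours are not. The lists hold no read counts, so depth is unknown. Positions are in mm9, 1-based. No mm9 annotation or sequence was used, so regions are named by position, and peaks at promoters were not separated from peaks elsewhere.

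The members were runs of many peaks. They held 3635 of the 29009 autosomal ES49 H3K27ac peaks and 15.3% of the length those peaks cover. A member had a median of 16 peaks (lowest 3, highest 63), whereas 59.5% of all joined domains were a single peak. The median covered length of a member was 23.1 kb and the median span 60.1 kb, so a typical member was more gap than peak, with a median of 41.6% of the span covered. In 12 members a single peak made up at least 50% of the covered length. The widest such peak, 19017 bp, lay in the member of rank 134 on chromosome 5.

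The name super-enhancer rests here on summed peak width alone. The ranking bent gradually, with no step at rank 200. With covered length and rank both scaled to 1, the slope reached 1 at rank 735, where a domain covered 7.69 kb, so the members all lay on the steep side of that point. The last 3 members covered 17130, 17011 and 17000 bp. The first 3 domains left out covered 16989, 16901 and 16848 bp. The domains on each side of the boundary thus differed by little.

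**Figure D1:**
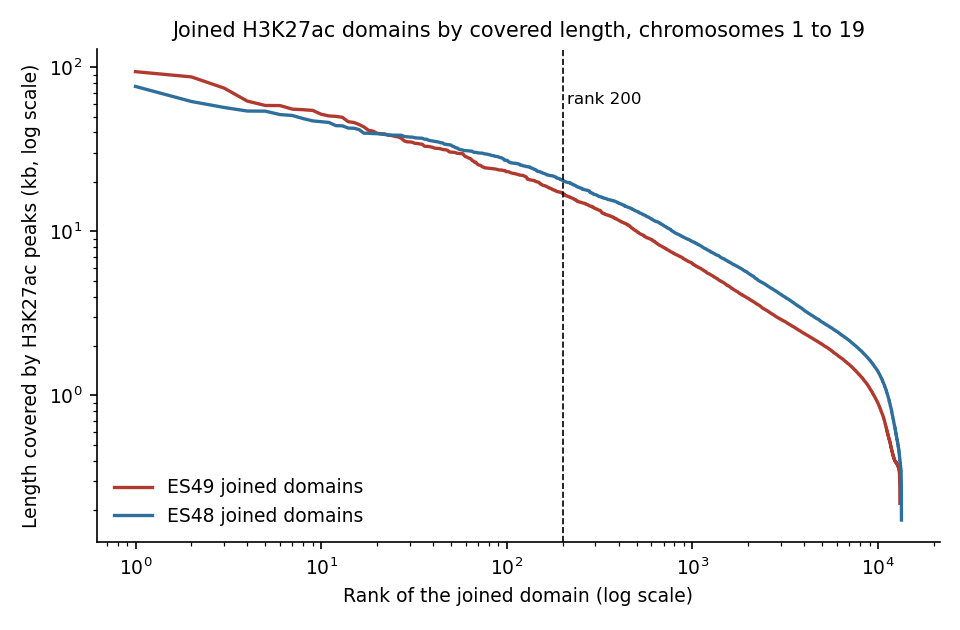
Covered length of each joined H3K27ac domain (kb, log scale) against its rank (log scale) in ES49 and in ES48, 1 curve per library, with a dashed line at rank 200. Both curves bend without a step, and domain 200 covers 17 kb in ES49 and 20.4 kb in ES48.

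The 10 highest members lay on 4 chromosomes. The first was chr5:120940333-121079224, with 51 ES49 peaks covering 93.9 kb and 33 ES48 peaks covering 72.7 kb. The second, chr10:79440935-79642877, was the longest by span, at 201.9 kb, and had the most peaks, 63 in ES49 against 28 in ES48. It was covered over 87.2 kb in ES49 and 84.6 kb in ES48, so nearly equal lengths were split into very different numbers of peaks. The third, chr11:74947274-75087171, covered 74.6 kb in ES49 and 38.7 kb in ES48. It also held the longest gap of any member, 12497 bp, just under the joining distance. The fourth, chr10:79987941-80177150, covered 62.1 kb in ES49 and 43.4 kb in ES48.

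Ranks 5 to 7 and 9 were on chromosome 11. At chr11:98542953-98672120 the covered lengths were 58.4 kb in ES49 and 58.8 kb in ES48, and at chr11:94848350-94968595 they were 58.3 and 55.5 kb. At chr11:102911959-103063951 they were 55.5 kb in ES49 and 33.9 kb in ES48, and at chr11:97249212-97398884 they were 54.5 and 32.1 kb. The first pair was thus matched between the lines, and the second pair was covered less in ES48. On chromosome 15, chr15:85882129-85966838 covered 55.1 kb in ES49 and 53.9 kb in ES48, and chr15:85482743-85541335 covered 51.7 and 38.6 kb. These chromosome 15 members lie less than 1 Mb apart.

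Chromosome 11 held 50 of the 200 members (25%, Clopper-Pearson interval 19.2 to 31.6). It held 7.56% of all joined ES49 domains and 12.0% of the ES49 covered length. In the 200 domains of ES48 chosen in the same way, 37 were on chromosome 11 (18.5%, 13.4 to 24.6). Chromosome 2 followed with 21 members, and chromosomes 5, 10 and 15 had 16 each. Chromosomes 13, 14, 16 and 19 had 1 each. On those 4 the ES48 list had 5, 5, 4 and 8.

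The covered length of whole chromosomes also differed between the lines. Over all autosomes ES49 covered 35.1 Mb and ES48 47.3 Mb, a ratio of 0.742. By chromosome the ratio of ES49 to ES48 was highest on chromosome 11, at 0.911, and next on chromosomes 15 and 10, at 0.859 and 0.835. It was lowest on chromosomes 19 and 18, at 0.542 and 0.579. Chromosomes 11, 10 and 15 had more members than ES48 top domains (50 against 37, 16 against 9 and 16 against 11), and chromosomes 19 and 18 had fewer (1 against 8 and 4 against 8). The counts did not follow the ratio throughout: chromosome 16, at 0.794, had 1 member against 4 ES48 domains, and chromosome 13, at 0.749, had 1 against 5. A chromosome's covered length contains that of its members, on which they were chosen, so the counts and the ratio are not independent.

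**Figure D2:**
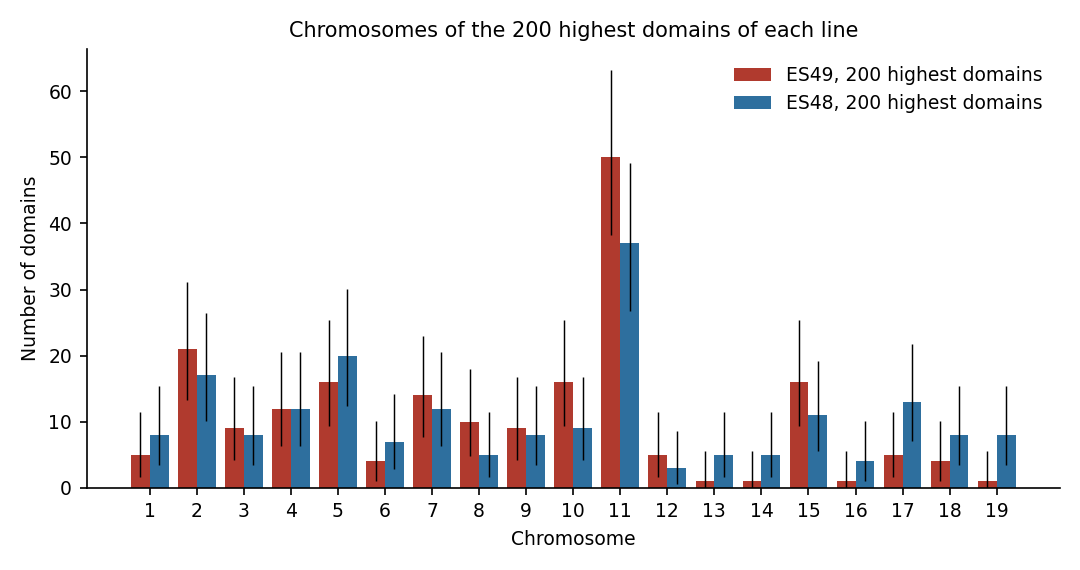
Number of the 200 highest joined H3K27ac domains on each chromosome, ES49 bars left and ES48 bars right, with 95% Clopper-Pearson intervals as error bars. Chromosome 11 stands highest in both lines, with 50 domains in ES49 and 37 in ES48.

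Members also lay near each other. With members less than 1 Mb apart put together, 139 of the 200 had another member in their run and 61 stood alone. The longest run, chr11:114581783-120826769, held 19 members over 6.24 Mb and covered 517.6 kb in ES49 and 487.5 kb in ES48 within them. The run at chr11:100209018-103154821 held 12 members, and that at chr10:79286880-81070128 held 10. The 200 members thus lay in 98 places, 37 runs and 61 single members, and are not independent of each other. Of the 200 domains ranked next 102 had another of their set in their run, in 138 places, and of the 200 highest ES48 domains 109 did, in 130 places.

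Every member was acetylated in ES48 as well. All 200 overlapped at least 1 ES48 H3K27ac peak (98.2 to 100), against 81.4% of all joined ES49 domains, which are mostly single peaks. The share was 99% (96.4 to 99.9) in the 200 domains ranked next, so it did not set the members apart from them. A median of 81.5% of a member's ES49 covered length was also covered in ES48 (exact binomial interval of the median 79.0 to 83.3, lowest 20.6%, highest 100%). For the 200 domains ranked next the median was 79.7% (77.5 to 84.2), an interval that overlaps that of the members. For all domains outside the members it was higher, 95.6% (95.1 to 96.2). Those domains had a median of 1 peak each, and summed over length the shares were 77.1% in members and 79.4% in the others. Summed over the members, ES49 peaks covered 5.39 Mb, ES48 peaks 5.27 Mb, and both together 4.15 Mb.

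The covered lengths of the lines were close in most members. The ratio of ES49 to ES48 covered length had a median of 1.02 (0.982 to 1.06), with quartiles of 0.855 and 1.198, and 108 of 200 members had the greater length in ES49, against 48.0% of all joined domains. ES48 peaks were counted only within a member's span, so a ratio well below 1 needs gaps in ES49 that ES48 fills. For the 200 domains ranked next the median ratio was 1.003 (0.948 to 1.05). The side of 1 depended on the peaks kept: the members' median was 1.18 with the upper 50% by score of the compared lists and 0.892 with the upper 50% of the ES49 H3K27ac list.

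At least 2 times the covered length in ES49 was found in 5 members (2.50%, Clopper-Pearson interval 0.817 to 5.74), against 22.0% of all joined domains. At least 2 times the length in ES48 was found in 1 member, against 1.45% of all joined domains. In the 200 domains ranked next these counts were 15 and 3. The background of 22.0% includes every single-peak domain without an ES48 peak, so the shares compare unlike sizes.

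The highest ratio was that of chr11:120756746-120826769, of rank 109. Its 25 ES49 peaks covered 22.5 kb and 3 ES48 peaks covered 4.73 kb, a ratio of 4.76, and 20.6% of the ES49 length was covered in both. Next came chr2:26128054-26222474, with 27.01 kb in ES49 and 11.3 kb in ES48, and chr1:137419981-137491821, with 19.97 and 8.58 kb. At chr2:32442306-32517503 the lengths were 24.6 kb in ES49 and 11.4 kb in ES48, and at chr2:27054475-27103879 they were 20.8 and 10.1 kb. In each of these 5 places ES48 had some acetylation, in 3 to 7 peaks, and 3 of the 5 were on chromosome 2.

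At the other end, chr4:13669732-13727842 had 15 peaks in each line, covering 17.4 kb in ES49 and 44.7 kb in ES48, a ratio of 0.389. Nearly all of its ES49 length, 99.5%, was also covered in ES48, where the place belonged to the domain of rank 9. At chr4:154483897-154625236 the lengths were 33.0 kb in ES49 and 64.6 kb in ES48. At chr11:118181659-118241198 they were 17.9 and 34.6 kb, at chr12:88131064-88178130 21.7 and 36.2 kb, and at chr2:167572845-167632670 18.2 and 29.3 kb. In these 5 members at least 88.7% of the ES49 length was shared, so the difference was length that ES48 added to it.

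**Figure D3:**
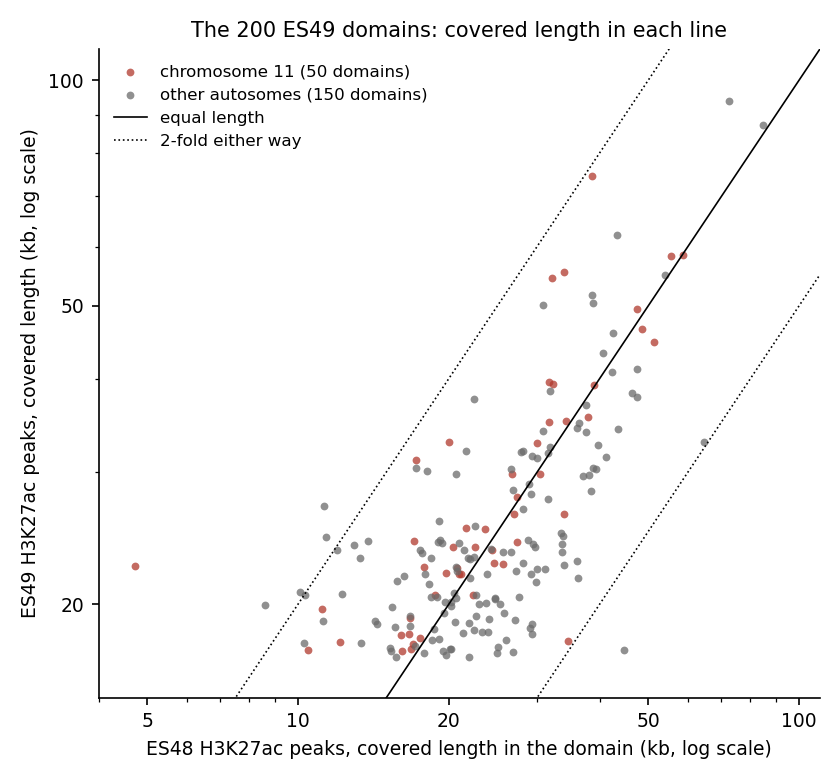
Covered length of each of the 200 members in ES49 (vertical, kb, log scale) against that in ES48 within the same span (horizontal, kb, log scale), 1 point per domain, with the 50 of chromosome 11 in red. Most points lie between the dotted 2-fold lines, and 1 chromosome 11 domain stands far to the left, with 22.5 kb in ES49 and 4.73 kb in ES48.

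Within the members the lines differed more in how the covered length was divided than in how much there was. The members were chosen on ES49 length and ES48 was counted only within their spans, so this does not describe the lines as a whole. Over all autosomes the ratio of ES49 to ES48 covered length was 0.742. A member had a median of 16 peaks in ES49 and 9 in ES48, and 189 of the 200 had more peaks in ES49, against 185 of the 200 ranked next and 44.3% of all joined domains. The median peak in the members was 742 bp wide in ES49 and 1724 bp in ES48. The widths were ordered the same way over the whole autosomal lists, with medians of 836 bp in ES49 and 1485 bp in ES48. An example is chr5:120118763-120141411, of rank 134, with 4 peaks covering 20.6 kb in ES49 where a single ES48 peak covered 22.6 kb.

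ES49 peaks without an ES48 counterpart inside the members were small. Of the 3635 ES49 peaks in members 2247 (61.8%, 60.2 to 63.4) overlapped an ES48 peak, with a median width of 1364 bp. The other 1388 had a median width of 477.5 bp. In 16 members every ES49 peak overlapped an ES48 peak, against 28 of the 200 domains ranked next and 63.0% of all joined domains, most of which have only 1 peak to match. In the 200 domains ranked next 61.9% of the ES49 peaks overlapped ES48, close to the members. Outside the members 69.2% of the ES49 peaks overlapped ES48, with medians of 1237 bp for those that did and 453 bp for those that did not.

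Members met the 200 highest ES48 domains far more often than joined domains in general did, though not in every case. Of the 200 members 108 (54.0%, 46.8 to 61.1) overlapped one of the 200 highest ES48 domains, against 2.10% of all joined ES49 domains. The share was 17% (12.1 to 22.9) in the 200 domains ranked next, an interval below that of the members. Of the ES48 domains 111 (55.5%) overlapped a member. The median rank of the best ES48 domain in a member was 169, and 191 members met an ES48 domain of the first 1000. The lowest was rank 3201, at chr2:32442306-32517503. No such values over all joined domains are given, and longer spans can meet more ES48 domains, so these ranks only describe the members. Seen from ES48, a median of 62.4% (58.4 to 65.5) of the ES48 covered length of its 200 highest domains was covered in ES49, and their median ratio of ES49 to ES48 length was 0.657 (0.617 to 0.702). Each list was chosen on the covered length of its own line, which these ratios contain.

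EWS-FLI1 was called in few members. ES49 EWS-FLI1 peaks lay in 8 of 200 members (4.0%, 1.74 to 7.73), against 0.450% of all joined domains, and ES48 EWS-FLI1 peaks lay in 10 (5.0%, 2.42 to 9.003), against 0.435%. In all 17 members held a peak of at least 1 line, against 0.756% of all joined domains, and 1 held peaks of both, against 0.130%. That is 1 of the 17 members with EWS-FLI1, and 17 of the 99 joined domains with it. With peaks joined at gaps under 5 kb, the counts were 4 members for ES49 and 5 for ES48, and with the upper 50% by score of the ES49 H3K27ac list they were 4 and 4. The members held 13 of the 335 autosomal ES49 peaks (3.88%) and 11 of the 410 autosomal ES48 peaks (2.68%).

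Per Mb of span, members were close to all other joined domains as a whole and above the 200 ranked next. ES49 EWS-FLI1 peaks numbered 0.974 per Mb of member span (exact Poisson interval 0.518 to 1.66), against 1.05 per Mb (0.817 to 1.32) in all other joined domains. ES48 peaks numbered 0.824 per Mb (0.411 to 1.47) in members and 0.914 (0.701 to 1.17) in the others. Without the 13 other domains that overlap dense loci, runs of at least 10 EWS-FLI1 peaks less than 500 kb apart, the others had 0.885 ES49 and 0.752 ES48 peaks per Mb. No member overlapped a dense locus. In the 200 domains ranked next there were 0 ES49 peaks (0 to 0.470 per Mb) and 2 ES48 peaks (0.255 per Mb, 0.0309 to 0.921). The ES49 interval lies below that of the members, but the members' 13 ES49 peaks lay in 8 members and are not independent. By domain, ES49 EWS-FLI1 was held by 4.0% of members (1.74 to 7.73) and 0% of the 200 ranked next (0 to 1.83). Those intervals overlap, as do the ES48 intervals per Mb.

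**Figure D4:**
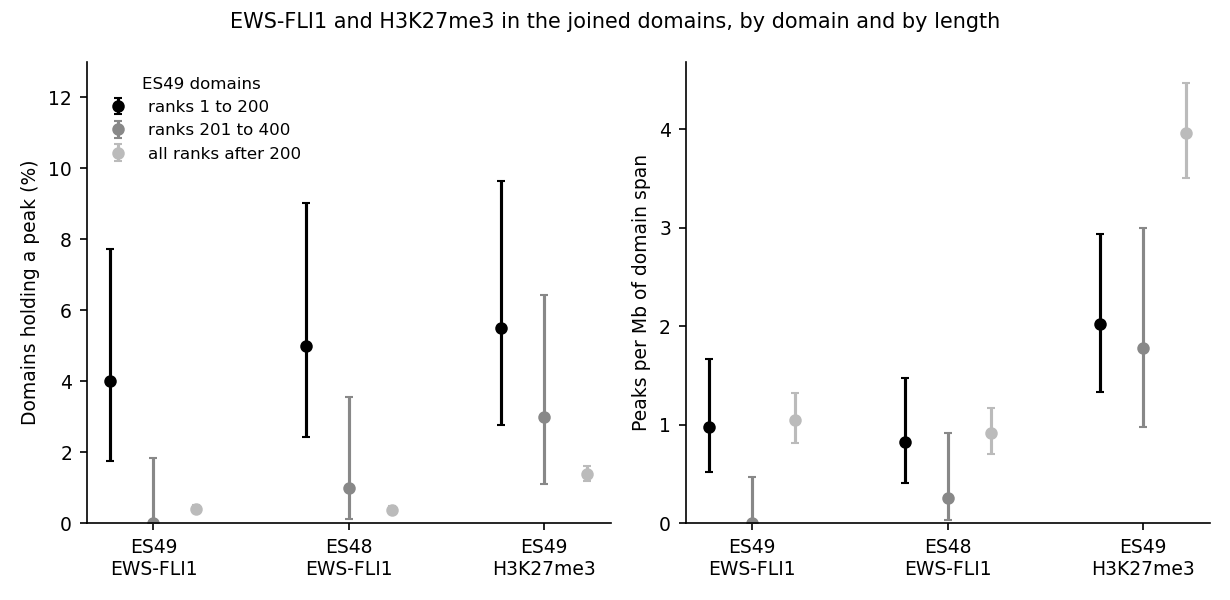
Left, share of joined domains that hold an EWS-FLI1 or H3K27me3 peak (%), with 95% Clopper-Pearson intervals. Right, the same peaks per Mb of domain span, with 95% exact Poisson intervals, for members, the 200 domains ranked next and all domains outside the members. Members stand above the domains outside in the share of domains and, for EWS-FLI1, beside them per Mb (0.974 against 1.05 for ES49).

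All 13 ES49 EWS-FLI1 peaks in members sat on an H3K27ac peak of ES49 and on one of ES48, although H3K27ac covered 40.3% of the members' summed span. In the other joined domains 65 of 71 (91.5%) sat on ES49 H3K27ac. Most of those domains are a single H3K27ac peak, where such an overlap is given in advance, so this share cannot be set against that of the members. Under each of the 13, the highest-scoring ES49 H3K27ac peak scored 1001.5 or more, in a list that starts at 50.01. That score is the caller's, the authors' own value. The EWS-FLI1 peaks themselves scored 53.1 to 230.2, with a median of 86.3 against 83.4 for all autosomal ES49 EWS-FLI1 peaks.

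Of these members chr5:101337477-101383059 held the most ES49 EWS-FLI1 peaks, 3, at chr5:101370669-101371017, chr5:101371189-101371592 and chr5:101379776-101380485. Its covered length was 20.1 kb in ES49 and 20.2 kb in ES48, so acetylation matched between the lines while binding was called in ES49 alone. The member chr4:154233212-154279351 held the highest-scoring of the 13, chr4:154247180-154247650 with a score of 230.2, and a second at chr4:154246219-154246593. It covered 20.5 kb in ES49 and 18.4 kb in ES48. Another 2 peaks lay close together in the highest member, chr5:120986761-120987144 and chr5:120987172-120987474, both within 1 H3K27ac peak in each line.

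The member chr8:67581405-67661937 held 2 ES49 EWS-FLI1 peaks near its ends, chr8:67584507-67584750 and chr8:67656909-67657181. Single peaks lay at chr11:75036986-75037307 in the member of rank 3, at chr2:71796854-71797400 in rank 25, at chr10:80640691-80641034 in rank 43 and at chr11:120788825-120789269 in rank 109. The last is the member least covered in ES48, and the peak scored 57.5, near the lowest score of the list. Of the 8 members with ES49 EWS-FLI1, 2 were on chromosome 11, which held 50 of all 200 members and 8 of the 335 autosomal ES49 peaks.

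The ES48 EWS-FLI1 peaks in members lay on acetylation in some cases only. Their scores were 51.2 to 82.1, with a median of 56.6 in a list that starts at 50.08. The median was 75.2 for the ES48 peaks in the other joined domains and 57.5 for all autosomal ES48 EWS-FLI1 peaks. Of the 11 peaks 5 (45.5%, 16.7 to 76.6) sat on ES49 H3K27ac and 6 (54.5%, 23.4 to 83.3) on ES48 H3K27ac. In the other joined domains 45 of 62 (72.6%) sat on ES49 H3K27ac, and the intervals overlap. In the single-peak domains among those, overlap with ES49 H3K27ac is given in advance, so the shares are not alike. Of the 10 members with ES48 EWS-FLI1, 6 were on chromosome 11, which held 50 of all 200 members and 33 of the 410 autosomal ES48 peaks. There rank 13 held chr11:117114152-117114342 and chr11:117141241-117141437. Rank 22 held chr11:114619572-114619733, rank 28 chr11:115941558-115941731 and rank 38 chr11:116983210-116983375. Rank 48 held chr11:100564237-100564455 and rank 78 chr11:119860074-119860221. Off chromosome 11 the ES48 peaks in members lay at chr15:77654940-77655109, chr3:87918951-87919173, chr2:164636593-164636799 and chr10:80641827-80642029.

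The last of these is in the 1 member with binding in both lines, chr10:80567626-80656062 of rank 43. Its ES49 and ES48 EWS-FLI1 peaks did not overlap, but both sat on the same H3K27ac peak, chr10:80638413-80642126 in ES49. The ES48 peak also overlapped a 303 bp H3K27me3 peak of ES49, chr10:80641800-80642102, so peaks of all lists met within this 1 acetylated stretch. None of the 13 ES49 and 11 ES48 EWS-FLI1 peaks in members overlapped an EWS-FLI1 peak of the other line. Over all autosomes 62 of 335 ES49 peaks (18.5%, 14.5 to 23.1) overlapped an ES48 peak, and 70 of 410 ES48 peaks (17.1%, 13.6 to 21.1) overlapped an ES49 peak. These autosomal peaks include those of dense loci, which no member overlapped. With only 13 and 11 peaks, the lack of overlap does not set the members apart.

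H3K27me3 of ES49 was called in 11 members (5.50%, 2.78 to 9.63), against 1.44% of all joined domains. The count was 3 with joining at 5 kb and 5 with the upper 50% of the ES49 H3K27ac list, and 10 of the 11 were among the 100 highest members. Per length the order turned: members held 2.02 H3K27me3 peaks per Mb of span (exact Poisson interval 1.33 to 2.94) and the other joined domains 3.96 (3.50 to 4.47). By length covered the values were near each other, 0.384% of the member span and 0.324% of the span of the others. The 200 domains ranked next were close to the members: 3.0% (1.11 to 6.42) held H3K27me3, at 1.78 peaks per Mb (0.976 to 2.99). Both intervals overlap those of the members, and H3K27me3 covered 0.324% of the span of these 200 domains. Of the 27 H3K27me3 peaks in members 16 overlapped ES49 H3K27ac and 11 lay in gaps. Chromosome 11 held 6 of the 11 members with H3K27me3, 50 of all 200 members and 14.2% of all autosomal H3K27me3 peaks.

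A pair of members held 90.2% of the length that the marks shared within members, 32.6 kb in all. The larger part was in chr6:52140862-52197340, of rank 39. There 7 H3K27me3 peaks covered 22.9 kb, and 20.7 kb of it was covered by ES49 H3K27ac too, 63.5% of the acetylated length of the domain. A 13271 bp H3K27me3 peak, chr6:52173920-52187190 with a score of 3205.8, lay over an 11375 bp ES49 H3K27ac peak, chr6:52173978-52185352 with a score of 3100. The starts of the peaks nearly coincided. In ES48 a single 21.7 kb H3K27ac peak, chr6:52170322-52192043, spanned the same stretch. The left part of the domain, from its start to chr6:52164014, had ES49 H3K27ac and no H3K27me3.

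The other was chr11:120091245-120148417, of rank 67, where 5 H3K27me3 peaks covered 10.9 kb and 8.62 kb was shared with ES49 H3K27ac, 32.7% of the acetylated length. The main one, chr11:120094021-120102018, was 7998 bp wide with a score of 3100. In ES48 the stretch lay in a 16.8 kb H3K27ac peak, chr11:120089789-120106637. Together these 2 members held 21.1% of the length that the marks shared in all joined domains.

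**Figure D5:**
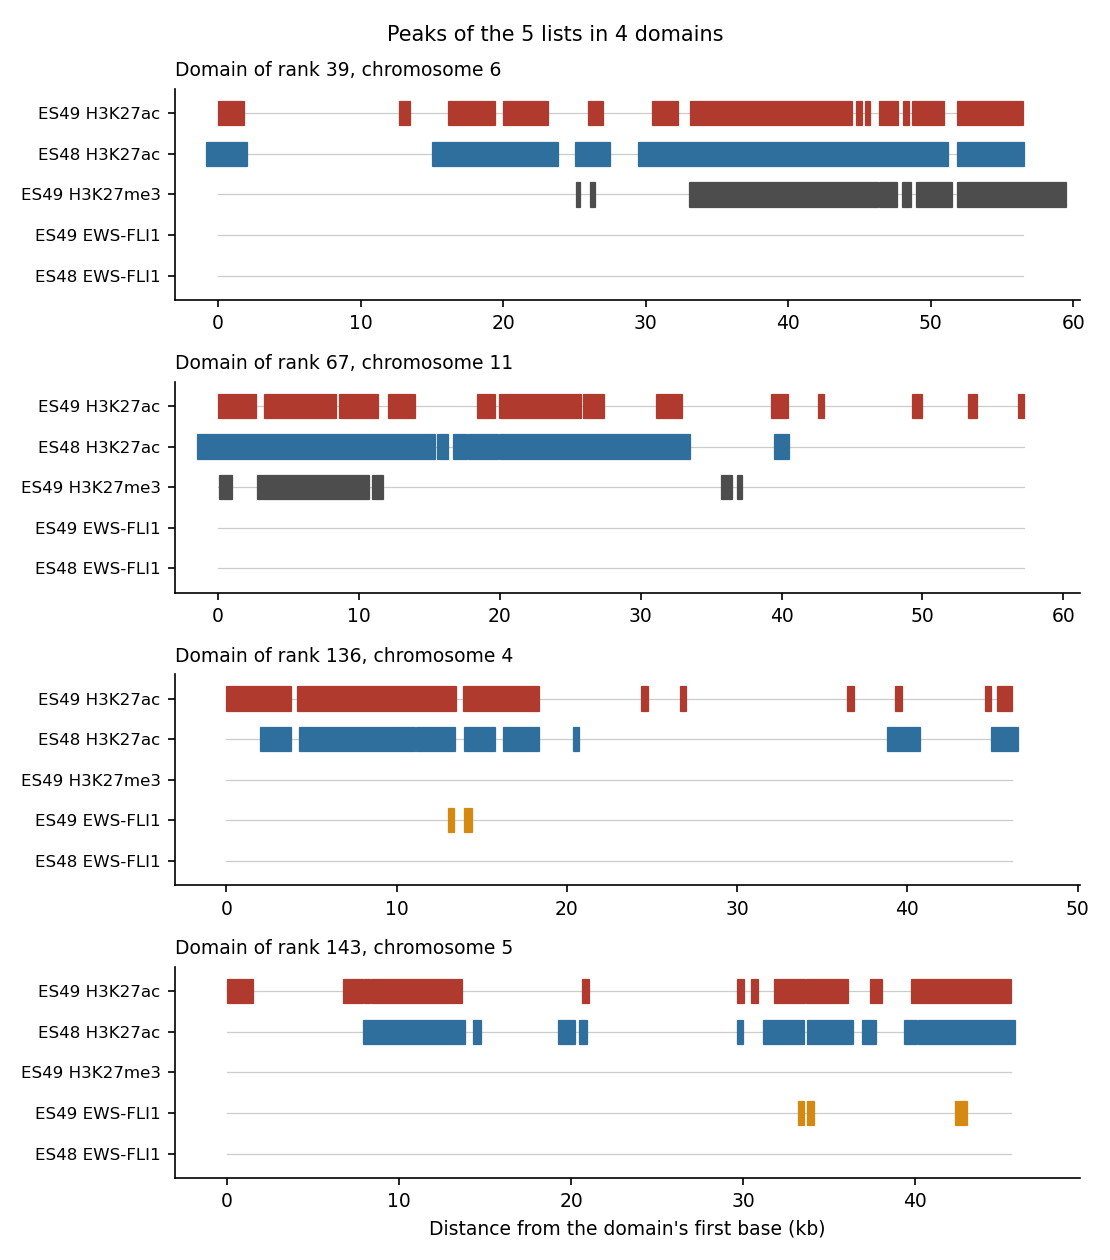
Peaks of the 5 lists (rows) in the members of rank 39, 67, 136 and 143, drawn to scale along the distance from each domain's first base (kb). In the upper 2 panels H3K27me3 lies over ES49 H3K27ac, and in the lower 2 panels ES49 EWS-FLI1 lies on H3K27ac of both lines with no ES48 EWS-FLI1 peak.

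In the remaining members H3K27me3 was short and mostly at an edge or in a gap. At chr2:25023265-25096337, of rank 200, 2 peaks covered 5.44 kb in a gap and none of it was acetylated in ES49. At chr11:97249212-97398884 the 4 peaks covered 3.23 kb, of which 0.329 kb was acetylated. At chr8:123011803-123113295 a peak of 3297 bp ran over the left end, with 1.23 kb shared. At chr11:98752431-98843917 a 3154 bp peak ran over the right end, with 0.483 kb shared, and chr11:115608932-115720921 had the same arrangement, with 0.463 kb shared. At chr10:80755215-80823181 and chr11:119024087-119162222 the marks did not overlap, and at chr11:114581783-114692295 a 415 bp H3K27me3 peak shared 0.395 kb.

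Members lay nearer to H3K27me3 than most other domains did. The median distance from a member to the nearest H3K27me3 peak was 85.0 kb (69.8 to 108.4), against 126.4 kb (101.4 to 156.0) for the 200 domains ranked next and 228.1 kb (220.6 to 236.0) for all other joined domains. Within 100 kb of such a peak were 109 members (54.5%, 47.3 to 61.5), against 29.8% of all joined domains. Among the 200 ranked next 85 were (42.5%, 35.6 to 49.7), an interval that overlaps that of the members. The intervals of the medians overlap between members and the 200 ranked next. Longer domains reach further, and chromosome 11 is rich in both members and H3K27me3 peaks. Within chromosome 11 the shares were 72.0% of members and 47.4% of the other domains, and off chromosome 11 they were 48.7% and 28.0%. What part span or chromosome has in these shares was not tested.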

How the data were processed

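The 5 ChIP-seq peak lists used are ES49 and ES48 EWS-FLI1, ES49 and ES48 H3K27ac, and ES49 H3K27me3, 1 library each. The ES49 input was not analysed here. The submitters' processing notes name Bowtie 1.1.1, SAMtools 1.2 and the mm9 build. Each deposited list gives a position and a score per peak, the authors' caller's own value. The names of the peaks are those that MACS writes. For its version, settings, control and score scale no source was at hand, so scores were used only within a list. The authors deposited a list per library.

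ES49 H3K27ac peaks on the 19 autosomes were joined at gaps under 12.5 kb, ranked by summed width, and the first 200 taken. ES48 was joined likewise. An overlap is at least 1 bp. Shares carry Clopper-Pearson intervals, medians order-statistic intervals and rates exact Poisson intervals, all 95%. Regions named are the 10 highest domains, the 3 domains on each side of the boundary, the 5 highest and 5 lowest ratios of covered length, every member with EWS-FLI1, the members with H3K27me3, and the members with the most peaks, widest peak and longest gap. The members and this rule were chosen with earlier results of these data known. Alternatives were joining at 5 kb, ranking by summed score, 100 domains, upper 50% of lists by score, overlap of 50% of the shorter, peaks within 1 kb, and leaving out dense EWS-FLI1 loci. The gene table at hand is of another build and was not used. Joining and overlap code was tested on simulated lists. Python 3.11.15, numpy 2.4.6, scipy 1.17.1 and matplotlib 3.10.9 were used.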

Additional observations from a re-analysis of the deposited data

Results flagged for a closer look

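Chromosomes X and Y are outside the rule, and their 643 ES49 H3K27ac peaks formed 382 joined domains, of which 2 reached the covered length of member 200. The domain chrY:2850287-2902346 covered 36.3 kb in ES49 and 41.8 kb in ES48 and would take rank 28. It held 40 ES49 and 84 ES48 EWS-FLI1 peaks and 49 H3K27me3 peaks covering 36.8 kb, more EWS-FLI1 peaks than all 200 members together. The domain chrX:166415571-166440769 covered 18.9 kb in ES49 and 7.29 kb in ES48, would take rank 161, and held 0 EWS-FLI1 and 0 H3K27me3 peaks. Both were singled out because they are peak calls on chromosomes that the comparisons above do not use.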

How the results depend on the processing

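Of 56 values, 7 results under 8 alternatives each, 47 stayed within the interval of the value reported and 9 did not. The median share of ES49 covered length also covered in ES48 was 85.9% with peaks joined at 5 kb, 71.7% with the upper 50% by score of each compared list and 92.7% with the upper 50% of the ES49 H3K27ac list. The median ratio of ES49 to ES48 covered length was 1.18 with the compared lists cut and 0.892 with the ES49 list cut. Each cut takes H3K27ac peaks from 1 line only, so these values do not show which line covered more. The share of members holding ES48 EWS-FLI1 was 2% with the upper 50% of the ES49 list. The share holding ES49 H3K27me3 was 1.50% with joining at 5 kb, 10.0% in the 100 highest domains and 2.50% with the upper 50% of the ES49 list. The alternatives of joining and of cutting the ES49 list change the domains themselves, and shorter gaps give shorter spans. Beyond that the cause was not tested. Leaving out dense loci changed no value, since no member overlapped one. The 1 kb distance is not used in the medians of share and ratio, so they could not change under it. The 47 thus include values that could not move. No paired analysis was possible because each group is 1 library with no replicate. Depth is unknown, so a peak missing from a list is not shown to be absent.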

Other observations

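Inside the members the widest ES49 H3K27ac peak had its centre in the middle of the domain in 81 cases, toward its lower coordinate in 49 and toward its higher coordinate in 70, with the span split into 3 equal stretches. A peak that fills most of a span has its centre in the middle in advance. No share over other joined domains is given beside these counts, so they do not set the members apart. Of the ES48 H3K27ac peaks in members 27.4% scored at least 3000, and of those in the other joined ES49 domains 27.9% did, so the ES48 peaks of the members were not set apart by the caller's score. The 10 members of the run at chr10:79286880-81070128 covered 365.1 kb in ES49 and 342.1 kb in ES48, and 4 of them overlapped one of the 200 highest ES48 domains. In the 19 members of the run at chr11:114581783-120826769 it was 10, and these 19 held 1 ES49 and 6 ES48 EWS-FLI1 peaks.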
